A study of Mus musculus with 9 samples.

Results

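E0771 cells carrying shPC28, a short hairpin RNA against pyruvate carboxylase (PC, gene Pcx), were compared with E0771 cells carrying a scramble hairpin (scram). All 3 shPC28 arrays and all 3 scram arrays of the study were taken, which was 6 of its 9 arrays, and each of the 19572 probe sets with a gene symbol was included out of 22206 on the array. The remaining 3 arrays came from cells with a different hairpin against Pcx, shPC25, and are given where shPC28 differed from it. E0771 is a mouse mammary tumour line. Every group was transduced with its hairpin and kept in culture without treatment, in DMEM (glucose 5.6 mM, glutamine 4 mM, serum 10%), and total RNA was hybridised to Clariom S arrays. With 1 scramble hairpin and no rescue of Pcx among these arrays, an effect of losing PC and an effect of the hairpin itself cannot be told apart within this comparison. Whether the 3 arrays of a group were separate cultures is not stated in the labels, nor whether a hairpin line was a pool or a clone, and every p therefore measures only the spread between these arrays.

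PC is a biotin-dependent enzyme of the mitochondrial matrix that carboxylates pyruvate to oxaloacetate. Oxaloacetate refills the TCA cycle and is the precursor of aspartate, which is used for nucleotide and protein synthesis. Tumour cells can also refill the cycle from glutamine, and they balance the use of pyruvate between the mitochondria and lactate. Gene expression responds to such shifts through stress pathways that sense misfolded protein, amino acid supply and energy, and through growth factor signalling.

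Pcx was reduced by shPC28, though less than by shPC25. Its values on the log2 scale of the arrays were 7.01, 6.85 and 6.57 with shPC28, 5.64, 5.43 and 5.53 with shPC25, and 9.18, 8.84 and 9.20 with scram. The groups did not overlap. The level with shPC28 was 4.8-fold lower than with scram (log2 change -2.26 ± 0.15, SE, limma adjusted p = 4.13e-06), and it was 1.28 log2 units higher with shPC28 than with shPC25 (limma adjusted p = 0.000307). Changes that were larger with shPC28 than with shPC25, given in the following paragraphs, stood beside a higher remaining level of Pcx mRNA.

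Across the array, 42.8% of the probe sets with a symbol changed with shPC28 at an adjusted p below 0.05 over all probe sets, 21.2% higher and 21.6% lower than with scram. Counts for gene lists in the following paragraphs are to be read beside these shares. Large changes were uneven in direction. At least 2-fold changes were counted in 4.1% of probe sets higher (803) and in 11.8% lower (2312), which became 1300 higher and 1836 lower with quantile normalization. The 3 shPC28 arrays lay wholly outside the 3 scram arrays in 52.1%. Of the calls 49.5% were higher. The share was 59.3% when each array was centred on its median, and 30.6% when each was centred on its olfactory receptor genes, taken as silent in these cells, where the 2-fold counts were 424 higher and 2862 lower. The median log2 change of all was 0.09, and the median called change was 0.81 in size. With probe sets split into 4 equal classes of mean level, in the class of highest level 39.4% were higher and 31.6% lower with shPC28, whereas in the class next to it 22.3% were higher and 44.4% lower. Arrays of 1 group resembled each other closely, with correlations over probe sets of 0.9954 to 0.9956 within shPC28 and 0.9975 to 0.9976 within scram, and 0.9793 to 0.9811 between them.

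**Figure D1:**
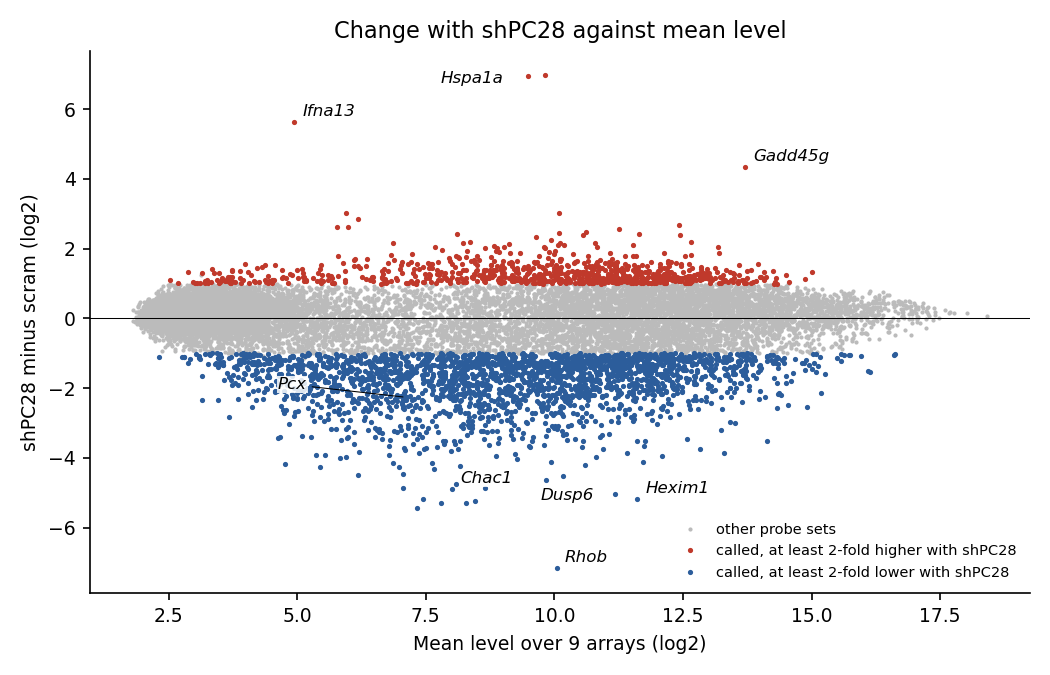
Change with shPC28 (shPC28 minus scram, log2, vertical axis) against the mean level over all 9 arrays (log2, horizontal axis), 1 point per probe set with a symbol. Red points were called at least 2-fold higher (803) and blue points at least 2-fold lower (2312), and the blue points reach further from 0 except for a few labelled genes such as Hspa1a.

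The labelled cell type, a mammary tumour line, was checked against markers. Vim, an intermediate filament of mesenchymal cells, stood at a mean of 17.33 with shPC28 and 17.15 with scram, and Krt8, a keratin of simple epithelia, at 14.46 with shPC28 and 13.74 with scram (log2 change 0.72 ± 0.09, limma adjusted p = 0.000144). Cdh1, the epithelial cadherin, was low at 5.50 with shPC28 and 4.89 with scram. Of 22 epithelial genes measured 2 rose and 6 fell (27.3% lower), with log2 changes from -1.24 to 0.72, the last that of Krt8. Of 23 mesenchymal genes 4 rose and 11 fell (47.8% lower), with log2 changes from -2.97 to 1. The members that fell are not named, so Krt8, Cdh1 and Vim do not stand for these lists. Of all probe sets with a symbol 21.6% were lower. Of 15 macrophage markers Lyz2 and C1qc rose and Cd14 fell. Ptprc, the leukocyte antigen CD45, was near the bottom of the scale at 3.10 with shPC28 and 3.23 with scram, while Lyz2, a lysozyme, read a mean of 10.58 with shPC28 and 9.79 with scram. Of 12 lymphocyte genes 2 fell (3 higher and 2 lower with the arrays centred on their medians), and of 11 fibroblast and endothelial genes 1 rose and 2 fell. In bulk RNA of this kind, fewer cells of a type and less RNA per cell cannot be told apart.

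The inducible HSP70 genes and Gadd45g were among the largest rises. Hspa1a and Hspa1b encode the stress-inducible HSP70 chaperone, which binds unfolded protein. Hspa1a read 13.12, 13.09 and 12.98 with shPC28, 9.28, 9.33 and 9.26 with shPC25, and 6.15, 6.37 and 5.84 with scram. Its rise was 123-fold (log2 change 6.94 ± 0.13, limma adjusted p = 2.91e-08), and shPC28 exceeded shPC25 by 3.77 log2 units (limma adjusted p = 4.78e-06). Hspa1b rose by a like amount, 125-fold, but the genes are near-identical, and each probe set may also detect the other transcript. The promoters are shown because they differ at 3 of 250 bases and share a pair of inverted heat shock half-sites (GAANNTTC, in capitals), which starts 104 bases before each transcription start. The windows are the 250 bases before the start in RefSeq, on the minus strand of GRCm38.p6, at chr17:34972157-34972406 for Hspa1a and chr17:34959239-34959488 for Hspa1b. The motif was chosen after these promoters had been read.
Hspa1a: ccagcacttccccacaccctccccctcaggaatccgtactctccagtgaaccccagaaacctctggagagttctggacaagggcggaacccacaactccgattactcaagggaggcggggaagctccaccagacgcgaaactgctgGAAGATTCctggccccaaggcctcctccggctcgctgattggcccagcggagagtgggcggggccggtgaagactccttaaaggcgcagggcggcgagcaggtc
Hspa1b: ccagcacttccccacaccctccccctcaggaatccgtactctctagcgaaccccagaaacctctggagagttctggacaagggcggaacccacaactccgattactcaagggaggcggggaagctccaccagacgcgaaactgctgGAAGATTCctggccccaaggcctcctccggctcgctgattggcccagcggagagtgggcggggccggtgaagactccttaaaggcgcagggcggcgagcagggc

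Other cytosolic chaperones moved far less. Of 24 chaperone and co-chaperone genes measured, 12 rose and 5 fell, with a median log2 change of 0.35. Dnajb1, the HSP40 partner of HSP70, rose by 0.60 ± 0.10 on the log2 scale (limma adjusted p = 0.000778). Bag3, a nucleotide exchange factor of HSP70, fell by 1.59 ± 0.12 (limma adjusted p = 7.7e-06), and Chordc1, a co-chaperone of HSP90, fell by 1.21. Apart from the HSP70 pair, no chaperone in the list moved by at least 2-fold upward.

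Gadd45g, which encodes a small stress protein that binds MAP3K4 and PCNA, read 15.52, 15.63 and 15.71 with shPC28, 14.28, 14.10 and 14.25 with shPC25, and 11.62, 11.13 and 11.08 with scram. It rose 20.3-fold (log2 change 4.34 ± 0.15, limma adjusted p = 3.59e-07), and was 1.41 log2 units higher with shPC28 than with shPC25 (limma adjusted p = 0.000203). Gadd45b rose 6.38-fold. Gadd45a rose 2.85-fold with no difference from shPC25 past the threshold (log2 difference -0.20, limma adjusted p = 0.546), and was named after its value had been seen to complete the family.

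The integrated stress response, in which eIF2 kinases raise translation of the factor ATF4, was mixed at the level of mRNA. Ddit3 encodes CHOP, a transcription factor induced by ATF4, and has more than 1 probe set here. It read 12.47, 12.43 and 12.42 with shPC28 and 10.70, 10.18 and 10.12 with scram on the probe set of highest mean (4.31-fold higher, log2 change 2.11 ± 0.18, limma adjusted p = 1.82e-05), and the other one gave a log2 change of 2.48. Adm2, the peptide intermedin, rose 5.97-fold. In the opposite direction, Chac1, a glutathione-degrading enzyme that CHOP and ATF4 induce, read 5.37, 5.0 and 5.76 with shPC28, 8.09, 8.04 and 8.98 with shPC25, and 10.73, 10.26 and 9.79 with scram. The groups did not overlap, and it was 29.5-fold lower (log2 change -4.88 ± 0.32, limma adjusted p = 4.55e-06). Sesn2, a stress-induced inhibitor of mTORC1, was 12.2-fold lower. Atf4 mRNA did not pass the test, at a mean of 16.19 with shPC28 and 16.26 with scram (limma adjusted p = 0.544), but with the arrays centred on olfactory receptor genes it was called lower (log2 change -0.27, limma adjusted p = 0.0385). A list of 27 genes that joins this response to growth arrest regulators, the GADD45 genes among them, gave 7 higher and 8 lower, and 9 higher and 7 lower with quantile normalization or the arrays centred on their medians.

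**Figure D2:**
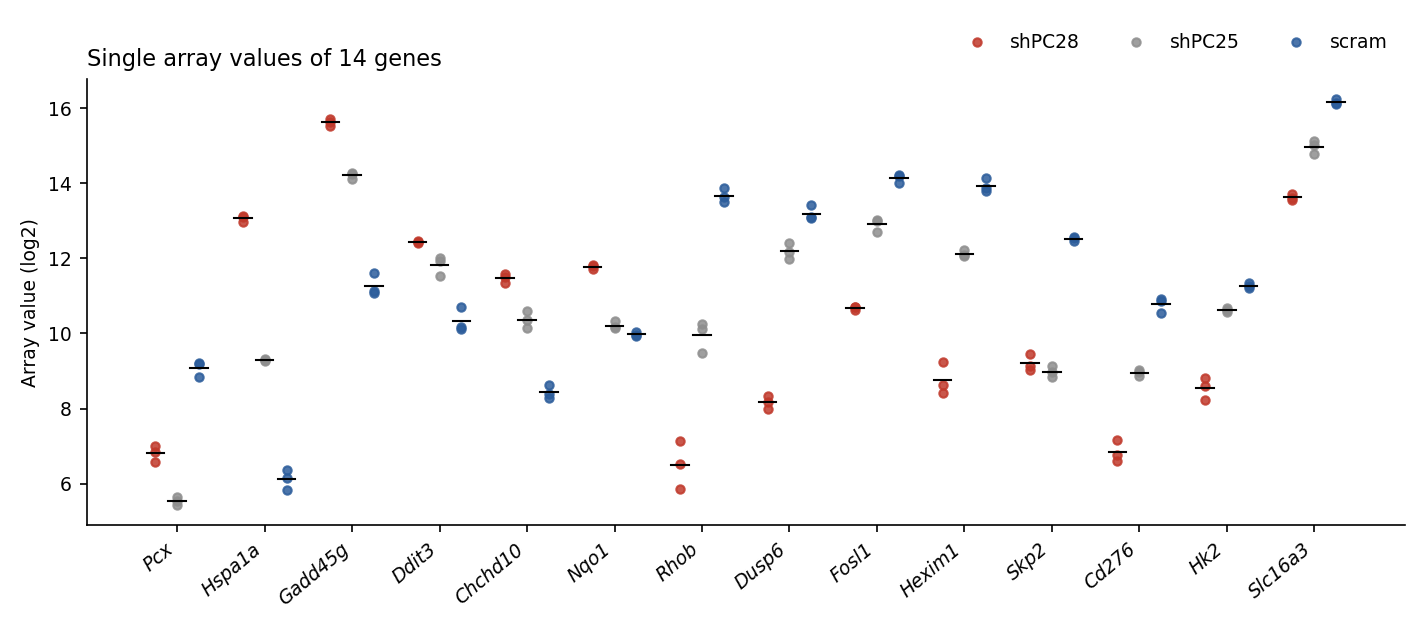
Array value (log2) of 14 genes, 1 point per array in groups of 3: shPC28 (red, left), shPC25 (grey) and scram (blue, right), with a black bar at each group mean. The groups shPC28 and scram do not overlap for any gene shown, and the shPC25 mean lies between theirs except for Pcx and Skp2.

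Chchd10, a small protein of the mitochondrial intermembrane space, had the highest log2 change of the CHCHD family. It read 11.33, 11.58 and 11.50 with shPC28, 10.35, 10.59 and 10.15 with shPC25, and 8.62, 8.39 and 8.29 with scram (8.21-fold higher with shPC28 than with scram, log2 change 3.04 ± 0.14, limma adjusted p = 9.31e-07). Its promoter is shown because it holds 2 copies of an amino acid response element, the composite site for ATF4 and CHOP (TGATGNAA, in capitals), starting 85 and 72 bases before the start. The window is the 250 bases before the start on the plus strand of GRCm38.p6, at chr10:75932880-75933129. The motif was chosen after this promoter had been read, and 2.18% of all promoters of genes above the median level hold it.
Chchd10: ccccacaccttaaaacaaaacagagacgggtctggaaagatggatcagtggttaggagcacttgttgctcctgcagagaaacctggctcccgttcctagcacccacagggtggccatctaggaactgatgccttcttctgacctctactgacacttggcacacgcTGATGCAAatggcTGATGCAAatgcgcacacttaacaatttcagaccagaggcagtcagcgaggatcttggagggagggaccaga

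Genes that restrain ERK signalling were among the strongest falls. ERK, the last kinase of the growth factor cascade, induces its own phosphatases (the DUSP family), and Sprouty and Spred proteins, which dampen receptor signalling upstream. Of 21 feedback and target genes measured 16 fell and 3 rose, with a median log2 change of -2.07, and 14 fell at least 2-fold. Dusp6, the cytosolic phosphatase of ERK, read 8.18, 8.33 and 8.0 with shPC28, 11.98, 12.40 and 12.17 with shPC25, and 13.41, 13.10 and 13.07 with scram. It was 32.5-fold lower with shPC28 than with scram (log2 change -5.02 ± 0.15, limma adjusted p = 2.42e-07) and 4.01 log2 units lower with shPC28 than with shPC25 (limma adjusted p = 4.78e-06). Dusp1, the nuclear phosphatase of p38, JNK and ERK, read 11.16, 11.20 and 11.35 with shPC28 against 15.16, 15.06 and 15.03 with scram. Its fall was 14.4-fold. Dusp2, Dusp7 and Spry4 fell by 3.78, 3.64 and 3.23 log2 units. Etv4 and Ets2, ETS factors of the same list, rose by 0.58 and 0.57, as did Dusp10, a phosphatase of p38 and JNK, by 0.61. The calls of Ets2 and Dusp10 were lost with the arrays centred on olfactory receptor genes. In the direct test 17 of the 21 were lower with shPC28 than with shPC25, where 15.3% of all probe sets with a symbol were lower and 11.8% higher.

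**Figure D3:**
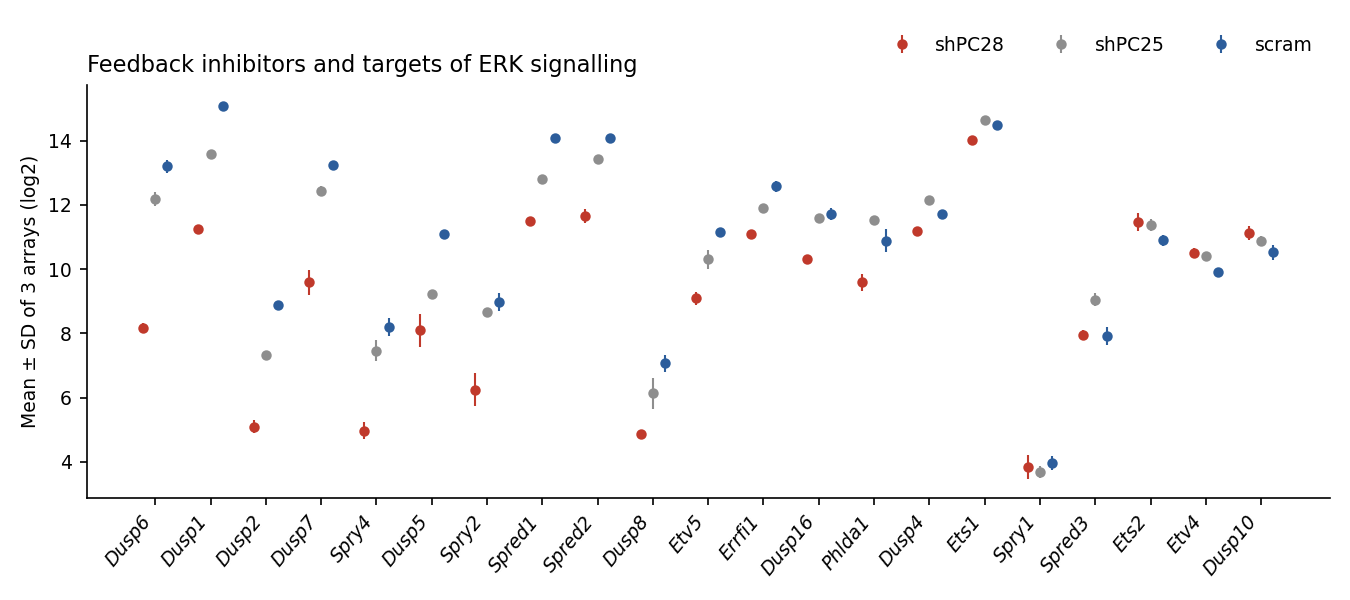
Mean ± SD (log2, 3 arrays per group) of each of the 21 measured ERK feedback genes, ordered by the change with shPC28: shPC28 (red, left), shPC25 (grey) and scram (blue, right). From Dusp6 to Ets1 shPC28 sits lowest of the groups, and the last 5 members at the right were not lower with shPC28 by the test.

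Immediate early genes, the first transcripts that growth factor signalling induces, also fell in majority. Of 28 measured 18 fell and 2 rose (64.3% and 7.14%), with a median log2 change of -0.91. Fosl1, an AP-1 subunit that ERK induces and stabilises, read 10.63, 10.71 and 10.70 with shPC28, 13.02, 12.71 and 13 with shPC25, and 14.20, 14.01 and 14.23 with scram (11.1-fold lower with shPC28 than with scram, log2 change -3.47 ± 0.11, limma adjusted p = 3.08e-07). Ier3, a survival gene of the NF-kB and ERK pathways, fell 13.4-fold and Jun, a core AP-1 subunit, fell 10.1-fold. The 2 rises were of Ier5l (2.12-fold) and of Fosl2, an AP-1 subunit (1.44-fold), whose call was lost with that centring. In the direct test 16 of 28 were lower with shPC28 than with shPC25. Among Kruppel-like factors, a family of zinc finger transcription factors, 5 of 17 fell and 3 rose. These were 29.4% and 17.6%, beside 21.6% and 21.2% of all probe sets with a symbol. Klf2 read 6.28, 5.79 and 6.09 with shPC28, 8.10, 8.13 and 7.82 with shPC25, and 11.22, 11.29 and 11.33 with scram, so it was 37.4-fold lower. Rhob, a gene on neither list that stress and growth factors induce, had the lowest log2 change of the genes named, at 6.53, 5.86 and 7.14 with shPC28, 10.12, 9.48 and 10.25 with shPC25, and 13.51, 13.87 and 13.63 with scram (143-fold lower, log2 change -7.16 ± 0.31, limma adjusted p = 7.88e-07).

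The CRE, the palindrome bound by CREB and ATF factors (TGACGTCA, in capitals), was found in the promoters of Dusp1 and of Lrrc8a, the obligatory subunit of the volume-regulated anion channel. Lrrc8a read 4.76, 6.02 and 5.31 with shPC28, 8.75, 8.84 and 8.84 with shPC25, and 10.25, 9.88 and 10.20 with scram. It was 26.8-fold lower with shPC28 (log2 change -4.75 ± 0.27, limma adjusted p = 2.08e-06). The windows, chosen after the values and the promoters had been seen, lie at chr17:26508473-26508722 on the minus strand for Dusp1, where the site starts 143 bases before the start, and at chr2:30237519-30237768 on the plus strand for Lrrc8a, where it starts 108 bases before. The CRE stands in 2.85% of all promoters searched, 2.6% of those of genes that rose 2-fold or more and 2.93% of those that fell as much.
Dusp1: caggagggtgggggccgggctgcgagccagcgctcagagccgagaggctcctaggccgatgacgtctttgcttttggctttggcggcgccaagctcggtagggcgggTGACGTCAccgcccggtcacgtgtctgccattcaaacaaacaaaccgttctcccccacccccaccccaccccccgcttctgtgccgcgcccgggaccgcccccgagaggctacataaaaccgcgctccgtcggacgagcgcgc
Lrrc8a: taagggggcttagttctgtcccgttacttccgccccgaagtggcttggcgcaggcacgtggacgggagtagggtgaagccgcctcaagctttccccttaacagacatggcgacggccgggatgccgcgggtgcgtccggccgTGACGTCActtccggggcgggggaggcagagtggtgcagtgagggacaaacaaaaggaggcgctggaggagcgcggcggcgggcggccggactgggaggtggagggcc

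Most Notch pathway genes fell with shPC28. Notch receptors are cut on binding a ligand of the Delta or Jagged families on a neighbouring cell, and their intracellular part activates Hes genes together with Rbpj and Maml co-activators. Of 23 genes measured 13 fell and 2 rose (56.5% and 8.7%), with a median log2 change of -0.99. Of all probe sets with a symbol 21.6% fell and 21.2% rose. Lfng, a Fringe glycosyltransferase that tunes ligand choice, read 5.19, 5.66 and 6.26 with shPC28, 8.32, 8.25 and 7.89 with shPC25, and 11.05, 10.88 and 11.09 with scram. It was 39.5-fold lower. The ligand gene Jag1 fell by 2.59 log2 units and the receptor gene Notch1 by 3.40. The ligand gene Dll1 fell to a mean of 4.13 with shPC28, against 7.72 with scram. Its shPC28 mean was below the 95th percentile of the olfactory receptor genes, taken as background, so only a bound can be given, at least 9.49-fold lower. Hes1, the canonical target, read 8.19, 9.23 and 8.40 with shPC28, 11.38, 11 and 11.18 with shPC25, and 11.62, 11.26 and 11.07 with scram. For Hes1 shPC25 overlapped scram while shPC28 did not, and the direct test between the hairpins gave -2.58 log2 units (limma adjusted p = 0.000167). Rfng, another Fringe gene, and Hes7 rose by 1.29 and 1.59 log2 units. In the direct test 11 of the 23 were lower with shPC28 than with shPC25.

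Growth factor and receptor genes fell more often than they rose, 19 against 6 of 40 measured (47.5% against 15%). Of all probe sets with a symbol 21.6% fell and 21.2% rose. Tgfbr1, the type I receptor of TGF-beta, read 5.67, 6.03 and 5.25 with shPC28, 7.11, 7.58 and 7.47 with shPC25, and 9.36, 9.46 and 9.34 with scram, and fell 13.3-fold. The EGFR ligand gene Hbegf was 5.17-fold lower with shPC28, whereas Egfr itself rose 2.05-fold. Ephrins and their receptors signal between touching cells, and 7 of 18 fell and 3 rose (38.9% and 16.7%). The median log2 change of these 18 was -0.05. Efnb1 was 29.1-fold lower, and Efna2, at background with shPC28, at least 6.79-fold lower. Epha2, a receptor of ephrin-A ligands, read 12.01, 11.98 and 12 with shPC28, 13.95, 13.93 and 13.95 with shPC25, and 14.24, 14.06 and 14.03 with scram. Against scram, Epha2 fell 4.33-fold with shPC28 and had a log2 change of -0.17 with shPC25 that was not called. The hairpins differed by -1.95 log2 units (limma adjusted p = 1.1e-05).

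The cytokine genes that changed were lower with shPC28. Of 40 cytokine and cytokine receptor genes measured 19 fell and 0 rose at an adjusted p below 0.05 in limma (20 lower and 3 higher at an unadjusted p below 0.05), with a median log2 change of -0.53. The share that fell was 47.5%, beside 21.6% of all probe sets with a symbol. With the arrays centred on their medians 19 fell and 2 rose. Csf1, the growth factor of macrophages, read 13.25, 13.19 and 13.33 with shPC28, 14.52, 14.57 and 14.53 with shPC25, and 15.43, 15.45 and 15.45 with scram. It was 4.55-fold lower (log2 change -2.19 ± 0.08, limma adjusted p = 5.11e-07). Tnf fell at least 9.62-fold, to background at a mean of 4.26 with shPC28, and Il6st, the gp130 subunit shared by IL-6 family receptors, fell 4.48-fold. Il1r1, the signalling receptor of interleukin-1, fell 7.6-fold, with no difference from shPC25 past the threshold (log2 difference -0.04, limma adjusted p = 0.944).

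Cd276 encodes B7-H3, an immune checkpoint ligand. It read 6.60, 6.77 and 7.15 with shPC28, 8.97, 8.87 and 9.04 with shPC25, and 10.54, 10.91 and 10.87 with scram, and was 15.3-fold lower (log2 change -3.93 ± 0.16, limma adjusted p = 5.63e-07). Cd274, which encodes PD-L1, was at background with shPC28 and at least 3.54-fold lower, and Ulbp1, a ligand of the NKG2D receptor of natural killer cells, was 3.99-fold lower. H2-K1, a class I antigen-presenting chain, was 1.55-fold lower. Of 21 genes of antigen presentation and checkpoint ligands, 6 fell and 2 rose (28.6% and 9.52%). Of all probe sets with a symbol 21.6% fell and 21.2% rose, so the share that fell was not far from that of the array. With the arrays centred on olfactory receptor genes 11 of the 21 fell and 1 rose.

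Ifna13, an alpha interferon gene, read 8.50, 8.44 and 8.18 with shPC28, 3.45, 3.67 and 4.03 with shPC25, and 2.85, 2.43 and 2.94 with scram. Members of this family share much sequence, so its probe set may read related genes. The scram arrays were at background, and Ifna13 was at least 19.7-fold higher with shPC28 than with scram. Its list of 27 interferon genes, receptors and kinases gave 6 higher and 4 lower, and 3 higher and 4 lower with the arrays centred on olfactory receptor genes. Among receptors and kinases Ifnar1 was 3.11-fold, Ifngr1 3.79-fold and Jak2 2.84-fold lower, while Ifnar2 was 1.87-fold higher. Among 44 interferon-stimulated genes 20 fell and 2 rose (45.5% and 4.55%), beside 21.6% and 21.2% of all probe sets with a symbol. With quantile normalization 14 fell and 5 rose, and with the arrays centred on olfactory receptor genes 25 fell and 0 rose. The fall was not particular to shPC28. With shPC25 20 of the 44 were lower than with scram and 1 higher, and the median log2 change was -0.62 with either hairpin.

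Genes of the G1/S list, which joins drivers and brakes of cell cycle entry, fell in majority. The G1/S list holds cyclins, CDKs, E2F factors, CDK inhibitors and the SCF ubiquitin ligase parts that remove p27 and cyclin E. Of 28 measured 19 fell and 2 rose (67.9% and 7.14%), with a median log2 change of -0.60. Of all probe sets with a symbol 21.6% fell and 21.2% rose. With shPC25 12 of the 28 were lower than with scram. Ccnd1, a gene of the list, was not measured. Skp2, the F-box protein that targets p27, read 9.03, 9.44 and 9.14 with shPC28, 8.84, 9.14 and 8.97 with shPC25, and 12.45, 12.56 and 12.53 with scram. It was 9.92-fold lower (log2 change -3.31 ± 0.13, limma adjusted p = 5.52e-07), and the hairpins did not differ past the threshold (log2 difference 0.22, limma adjusted p = 0.258). Ccne1, the cyclin that drives CDK2 into S phase, was 7.14-fold lower, at 10.38, 10.23 and 10.21 with shPC28 against 12.93, 13.14 and 13.26 with scram. Fbxw7, the F-box protein for cyclin E, fell 8.51-fold, and Rb1, the G1 brake, rose 1.64-fold. Replication genes gave 19 of 42 higher and 9 lower, and 12 higher and 13 lower with the arrays centred on olfactory receptor genes. Mitosis genes gave 10 of 41 higher and 8 lower, near the shares of the whole array, and 5 higher and 16 lower with that centring.

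Survival genes of the BCL2 family fell in part. Mcl1, a short-lived protein that blocks BAX and BAK, read 11.11, 10.70 and 11.24 with shPC28 against 13.36, 13.59 and 13.35 with scram and was 5.34-fold lower. Bcl2l1, which encodes BCL-XL, read 12.63, 12.55 and 12.83 with shPC28, 13.75, 13.88 and 13.78 with shPC25, and 13.96, 13.82 and 13.72 with scram, so it fell 2.24-fold with shPC28. With shPC25 it had a log2 change of -0.03 that was not called, and the hairpins differed by -1.13 log2 units (limma adjusted p = 0.000132). Of 19 family members 7 fell and 3 rose (36.8% and 15.8%), beside 21.6% and 21.2% of all probe sets with a symbol. The median log2 change of the family was 0.06, and the members that rose are not named here. Mdm2, the ubiquitin ligase that removes p53 and is also a p53 target, fell 5.57-fold. Of 25 p53 targets 9 fell and 4 rose (36% and 16%, with a median log2 change of -0.10). Cdkn1a, which encodes the CDK inhibitor p21, was not called (log2 change -0.08, limma adjusted p = 0.624). In homologous recombination, Rad52 rose 8.11-fold at a low level and Brca1 fell 2.57-fold, within a list of 31 with 10 higher and 13 lower. That balance turned to 13 higher and 9 lower with quantile normalization and to 12 higher and 10 lower with the arrays centred on their medians.

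Genes of transcription split by role. The measured subunits of RNA polymerase II, which do not include the catalytic one, mostly rose, 8 of 11 higher and 2 lower, with a median log2 change of 0.65. Polr2i, a small subunit, rose 2.69-fold. Polr2d, a stalk subunit, and Polr2b, the large subunit that pairs with the catalytic one, fell, Polr2b at 14.46, 14.43 and 14.46 with shPC28 against 15.37, 15.37 and 15.38 with scram (1.9-fold lower). Factors of promoter-proximal pausing and elongation gave the opposite balance, 14 lower and 7 higher of 24, with a median of -0.52. Hexim1, which holds the kinase P-TEFb inactive, read 8.41, 8.63 and 9.24 with shPC28, 12.23, 12.08 and 12.05 with shPC25, and 14.13, 13.86 and 13.80 with scram. It fell 36-fold (log2 change -5.17 ± 0.20, limma adjusted p = 5.33e-07), and Mepce, which caps the 7SK RNA of the same complex, fell 5.63-fold. Supt4a, a subunit of the elongation factor DSIF, rose 3.03-fold.

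Splicing genes also split. SR proteins, which bind exons, and the kinases of their list gave 7 lower and 4 higher of 19. Srsf1 read 11.91, 12.31 and 11.89 with shPC28, 13.02, 13.29 and 13.18 with shPC25, and 14.95, 14.96 and 15.14 with scram (7.89-fold lower, log2 change -2.98 ± 0.14, limma adjusted p = 9.07e-07). The Sm, LSm and SF3 core proteins gave 16 higher and 3 lower of 33 (12 higher and 8 lower with the arrays centred on olfactory receptor genes), including Lsm3 at 2.35-fold and Snrpc at 2.22-fold higher. Genes named Zfp, which encode zinc finger proteins, fell more often than they rose: of 355 measured 159 fell and 48 rose, and 105 fell at least 2-fold. With quantile normalization 125 of these genes fell and 70 rose. The shares were 44.8% lower and 13.5% higher, beside 21.6% and 21.2% of all probe sets with a symbol. Their median level lay in the class of mean level next to the highest, where the share lower was alike. In that class 44.4% were lower and 22.3% higher, and 1475 of 4893 fell at least 2-fold. Zfp217 fell to background at a mean of 4.12 with shPC28, against 8.61 with scram, and Zfp324, also at background with shPC28, was at least 10.9-fold lower, while Zfp984 was 3.07-fold higher.

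**Figure D4:**
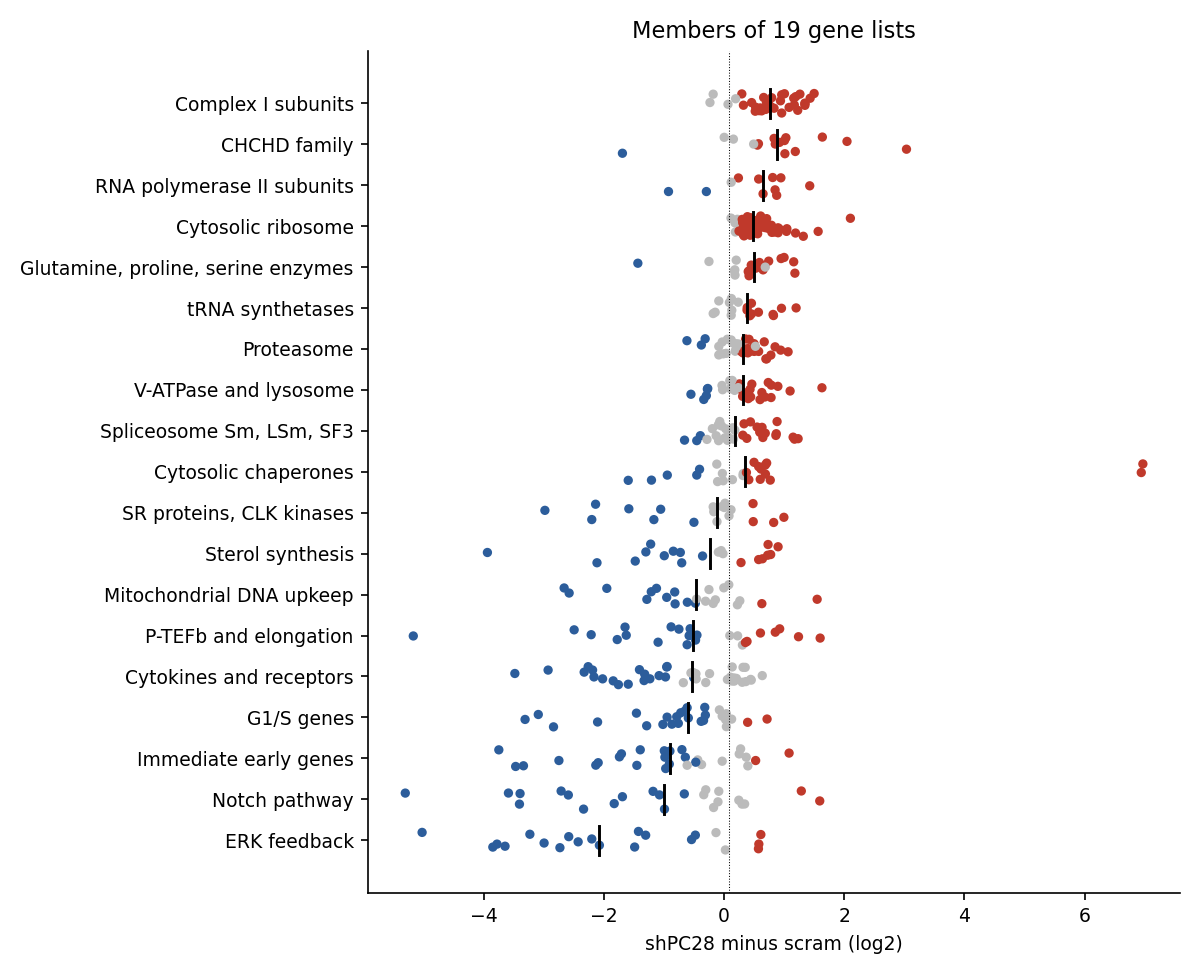
Change with shPC28 (shPC28 minus scram, log2, horizontal axis) of each measured member of 19 gene lists, 1 point per gene: red called higher, blue called lower, grey not called. Black bars are list medians and the dotted line marks the median of all probe sets with a symbol (0.09), with ERK feedback genes furthest to the left.

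Complex I subunit genes encoded in the nucleus mostly rose, while genes that maintain and transcribe mitochondrial DNA mostly fell where they changed. Complex I, the NADH dehydrogenase, passes electrons from NADH to ubiquinone. Of 36 of its subunit genes measured 32 rose and 0 fell at an adjusted p below 0.05 in limma (32 higher and 1 lower at an unadjusted p below 0.05), with a median log2 change of 0.76, and 12 rose at least 2-fold. Ndufb11, a membrane arm subunit, read 10.09, 10.33 and 10.45 with shPC28, 9.43, 9.47 and 9.31 with shPC25, and 8.97, 8.74 and 8.66 with scram, and so was 2.83-fold higher. Ndufs1, the largest subunit of the peripheral arm, was not called, with a log2 change of -0.23 (limma adjusted p = 0.0621), but was called lower with the arrays centred on olfactory receptor genes (log2 change -0.43, limma adjusted p = 0.00427). In the direct test, 27 of 36 were higher with shPC28 than with shPC25. The CHCHD family of small twin-cysteine proteins gave 12 higher and 1 lower of 16. Chchd5 rose 4.13-fold, and Chchd4, the oxidoreductase that folds such proteins on entry, fell 3.23-fold. Mitochondrial protein import genes gave 21 higher and 7 lower of 38, with Tomm7, a small subunit of the outer membrane translocase, 2.71-fold higher and Tomm70a, a receptor of it, 2.61-fold lower.

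Of 22 genes for mitochondrial DNA upkeep, transcription and their regulators, 11 fell and 2 rose, with a median log2 change of -0.47. Twnk, the replicative helicase Twinkle, read 4.31, 5.04 and 4.65 with shPC28, 6.87, 6.98 and 6.75 with shPC25, and 7.20, 7.26 and 7.52 with scram. It was 6.32-fold lower (log2 change -2.66 ± 0.18, limma adjusted p = 5.44e-06). Polrmt, the mitochondrial RNA polymerase, was 3.86-fold lower, and its initiation factor gene Tfb2m 5.97-fold lower, whereas Tfb1m, the rRNA methyltransferase related to it, was 2.93-fold higher. In the direct test 12 of 22 were lower with shPC28 than with shPC25 and 2 higher.

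Cytosolic ribosomal protein genes rose by small amounts, 54 of 58 measured with a median log2 change of 0.48. Rpl22l1, a paralogue of Rpl22, rose 4.3-fold. Rps19, a small subunit protein, read 14.84, 14.65 and 14.73 with shPC28, 13.91, 14.11 and 13.91 with shPC25, and 13.26, 13.18 and 13.08 with scram (2.96-fold higher). Rises of a small size depended on the scale of the arrays. The 1080 olfactory receptor genes, which are not expected in this line, had a median log2 change of 0.19. With the arrays centred on them 29 ribosomal genes were called higher. Of 35 proteasome genes 10 were higher and 4 lower after that centring, and 18 higher and 3 lower without it. Of 18 tRNA synthetase genes 5 were higher and 3 lower with it, and 10 higher without. Complex I had 30 genes higher and 2 lower after that centring, and ERK feedback 16 lower and 1 higher.

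At the metabolic nodes around pyruvate, 9 of 28 genes rose and 6 fell, and 4 were higher and 10 lower with the arrays centred on olfactory receptor genes. Slc16a3, the MCT4 lactate exporter, read 13.70, 13.55 and 13.61 with shPC28, 14.77, 15.03 and 15.13 with shPC25, and 16.12, 16.24 and 16.13 with scram, and was 5.83-fold lower (log2 change -2.54 ± 0.11, limma adjusted p = 8.18e-07). The other lactate genes set to be named, Ldha, Ldhb, Slc16a1 and Bsg, are not given here, so Slc16a3 does not stand for them. Gpt2, the mitochondrial alanine transaminase that forms alanine from pyruvate, rose 2.45-fold with shPC28, and the difference from shPC25 did not pass the threshold (log2 difference 0.18, limma adjusted p = 0.309). Pdp1, the phosphatase that activates pyruvate dehydrogenase, fell 4.39-fold with shPC28, and the hairpins differed by -2.23 log2 units (limma adjusted p = 3.83e-05). Hlcs, which attaches biotin to PC and the other carboxylases, was 2.99-fold lower. Hk2, the hexokinase of many tumours, read 8.59, 8.82 and 8.22 with shPC28, 10.63, 10.68 and 10.56 with shPC25, and 11.21, 11.34 and 11.27 with scram (6.63-fold lower). In glycolysis as a whole 7 of 17 genes fell and 5 rose, and 5 fell and 7 rose with the arrays centred on their medians.

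Genes of the listed amino acid enzymes moved mostly upward. For glutamine, proline, serine and one-carbon enzymes 13 of 20 rose and 1 fell, with a median of 0.49. Psph, the last enzyme of serine synthesis, read 12.76, 12.70 and 12.76 with shPC28 against 11.62, 11.58 and 11.48 with scram, a 2.27-fold rise, and Mthfd2, a mitochondrial folate enzyme, rose 2-fold. Cad, which starts pyrimidine synthesis from glutamine and aspartate, was the 1 lower gene, 2.7-fold. With the arrays centred on olfactory receptor probe sets 8 of the 20 were higher and 2 lower. Sterol synthesis genes divided, 10 lower and 7 higher of 20: Hmgcs1, which makes HMG-CoA, read 9.64, 10.30 and 9.93 with shPC28, 12.53, 12.40 and 12.42 with shPC25, and 13.69, 13.98 and 14.01 with scram (15.3-fold lower), and Fdft1, squalene synthase, rose 1.87-fold.

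Antioxidant genes of the NRF2 set gave 15 higher and 6 lower of 31 (48.4% and 19.4%), and 11 higher and 8 lower with the arrays centred on olfactory receptor genes. Their median level lay in the class of highest mean level, where 39.4% of probe sets were higher and 31.6% lower. Nqo1, a quinone reductase, read 11.82, 11.79 and 11.72 with shPC28, 10.14, 10.16 and 10.32 with shPC25, and 9.97, 9.94 and 10.03 with scram. It rose 3.47-fold with shPC28, and the direct test between hairpins gave 1.57 log2 units (limma adjusted p = 1.9e-05). Srxn1, sulfiredoxin, fell 2.78-fold. V-ATPase and lysosomal genes gave 19 higher and 5 lower of 32 (10 higher and 5 lower with the arrays centred on olfactory receptor genes), with Atp6v1f, a subunit of the proton pump, 3.1-fold higher. Autophagy genes gave 13 higher and 10 lower of 34, which turned to 9 higher and 12 lower with that centring, with Rb1cc1, a part of the initiating kinase complex, 6.26-fold lower and the LC3 relative Gabarapl1 2.6-fold higher.

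Ptgds and Thrsp moved in opposite directions with the 2 hairpins. Ptgds, a prostaglandin D synthase, read 10.62, 10.43 and 10.46 with shPC28, 7.67, 8.11 and 8.08 with shPC25, and 9.07, 8.77 and 8.89 with scram. It rose 3.02-fold with shPC28 and fell by 0.96 log2 units with shPC25, and the direct test gave 2.55 log2 units (limma adjusted p = 1.9e-05). Thrsp, a regulator of lipid synthesis, rose by 1.20 with shPC28 and fell by 1.06 with shPC25. Riox1, a ribosomal oxygenase, changed with shPC28 far more than with shPC25. It read 5.65, 4.61 and 4.60 with shPC28, 8.37, 9.10 and 8.80 with shPC25, and 9.39, 9.18 and 9.27 with scram, and was 20.1-fold lower with shPC28 than with scram. The hairpins differed by -3.80 log2 units (limma adjusted p = 4.13e-05). Over all probe sets with a symbol, 11.8% were higher and 15.3% lower with shPC28 than with shPC25, and 21.1% were called between shPC25 and scram. Both hairpin comparisons against scram use the same 3 scram arrays.

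Span in the genome and promoter composition are given as a description, with no test. Among genes above the median level with a RefSeq span (GRCm38.p6), the median span was 15.7 kb for 734 genes that rose 2-fold or more, 29 kb for 2126 that fell as much and 23 kb for all 9947. Of genes under 5 kb, 14.2% rose and 16.6% fell by 2-fold or more, and of genes of 50 to 100 kb 4.48% were higher and 28.2% lower. Promoters also differed in composition. The median GC content over 250 bases was 57.6% for genes that rose 2-fold or more, 63.2% for those that fell 2-fold or more and 60% for all genes above the median level. The classes also differed in level, with a median of 11.16 with shPC28 and 9.83 with scram for the higher genes, and of 8.51 with shPC28 and 10.39 with scram for the lower genes. The part of level in the difference of span was not tested.

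**Figure D5:**
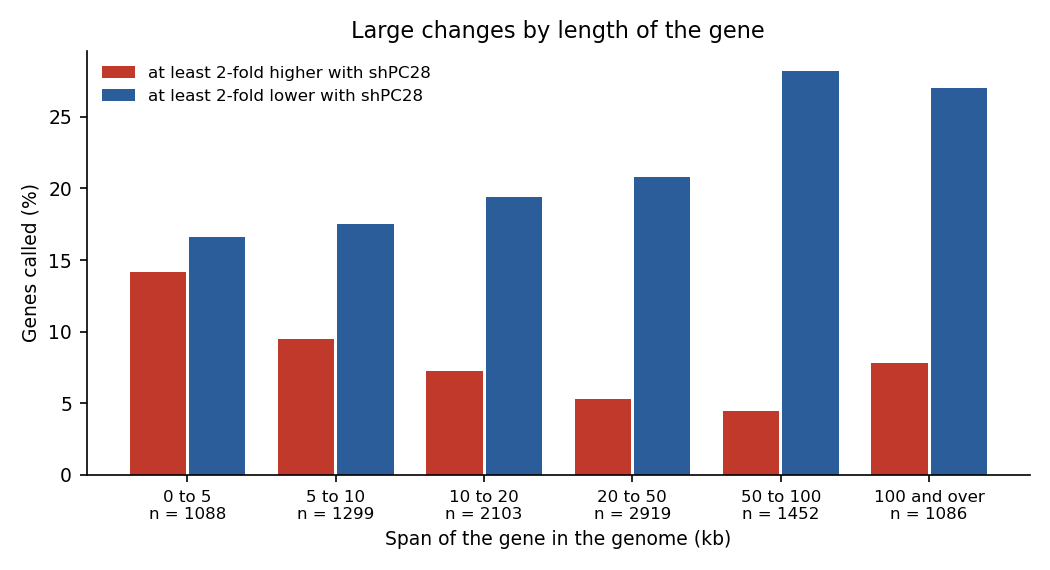
Share of genes above the median level called at least 2-fold higher (red) or at least 2-fold lower (blue) with shPC28 (percent, vertical axis), by the span of the gene in the genome (kb, horizontal axis, with the number of genes). The red share is highest below 5 kb, at 14.2%, and the blue share is highest from 50 to 100 kb, at 28.2%.

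Motifs were searched in the same 250-base windows, on both strands except for the TATA box. Promoters were matched for 616 of the 734 higher genes and 1706 of the 2126 lower genes, and for 8154 of all 9947. The inverted heat shock pair was found in 6.49% of higher, 3.81% of lower and 4.78% of all promoters. The amino acid response element was found in 2.76% of higher and 2.4% of lower promoters. The E-box (CACGTG) was in 12% of higher, 8.21% of lower and 8.82% of all, and the GC box (GGGCGG) was in 56.2% of higher, 65.2% of lower and 60.7% of all. The AP-1 site (TGANTCA) was in 5.19% of higher, 4.04% of lower and 4.11% of all promoters. The ISRE core (GAAA and GAAA, with any 2 bases between) was in 2.76% of higher, 1.41% of lower and 2.34% of all promoters. Of the other motifs searched, the CCAAT box (CCAAT) was in 39.3% of higher, 36.8% of lower and 37.9% of all. The NRF1 site (GCGCA and GCGC, with any base between) was in 9.09% of higher, 8.85% of lower and 9.36% of all promoters. The ETS site (CCGGAAGT) was in 5.84% of higher, 5.8% of lower and 6.78% of all. The YY1 core (AAGATGG) was in 4.22% of higher, 3.63% of lower and 4.38% of all. The TATA box (TATAAA) was in 4.06% of higher, 3.22% of lower and 3.88% of all. The CArG box, by name, was in 1.46% of higher, 0.938% of lower and 1.12% of all promoters. The full heat shock element (TTC, GAA and TTC, with any 2 bases between each), which contains the inverted pair, was in 0.162% of higher, 0.176% of lower and 0.331% of all promoters. The E-box, the CRE and the inverted pair read the same on both strands, and a match describes letters only.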

How the data were processed

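Total RNA from 9 samples of E0771 cells was labelled with biotin and hybridised to Clariom S mouse arrays, and the deposited log2 values, 1 per probe set, were made by the authors with the Transcriptome Analysis Console. The base of the logarithm was taken from the range of the values (1.51 to 18.64), and which normalization and build were used is not given in the sources used here. Arrays hold no counts, so the number of arrays limits the precision (median SE of a log2 change 0.157).

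limma 3.58.1 (R 4.3.3) was fitted on all 9 arrays with 1 mean per group, followed by eBayes, and p-values were adjusted by the Benjamini-Hochberg method over 22206 probe sets. Probe sets were called at an adjusted p below 0.05. Where 1 group's mean lay below the 95th percentile of the 1080 olfactory receptor probe sets (4.38 with shPC28, 4.07 with scram), a level chosen after the values were seen, the fold is a bound against the higher of that percentile and the gene's value on each array. The 2634 probe sets without a symbol were tested but not named. Where a gene had several probe sets, list counts used that of highest mean. The scripts were tested on simulated data.

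A rule set which genes could be named. It gave Pcx, the 15 highest and 15 lowest called changes above the median level, and 6 per direction between the hairpins. In each of 54 gene lists it gave up to 6 called members of largest change, 3 against the majority and 3 not called. The text names 123 genes and leaves out others that the rule gave, and the choice among these was not fixed by the rule. Brca1, Dnajb1, Gabarapl1, Gadd45a and Ptprc were named outside this rule, after their values were seen. The members and lists were chosen with earlier results of these data known. The result of 1 list is not reported here. Alternatives were the 6 arrays alone, quantile and other centrings, a replicate block, filters on dim probe sets, other eBayes settings and leaving out each array. Promoters and gene spans came from RefSeq tables of GRCm38.p6. Of 19505 symbols, 15691 matched a promoter, and the most 5′ one was used for the 2564 with several.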

Additional observations from a re-analysis of the deposited data

How the results depend on the processing

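The count of probe sets changed with shPC28 was 8378, and it ran between 7166 (without scram replicate 2) and 8238 (without shPC25 replicate 2) when 1 array was left out, with 3355 to 4067 higher and 3807 to 4171 lower. The scale of the arrays mattered most for rises. With arrays centred on olfactory receptor probe sets 2372 were higher (4149 without it) and 424 were at least 2-fold higher (803 without it), and with quantile normalization the 2-fold counts were 1300 higher and 1836 lower (2312 lower without it). The causes were not tested. Of 119 named genes that were called, 112 kept the call and direction under every alternative run, 7 lost it under at least 1 (Ets2, Dusp10, Fosl2, Polr2d, Cdh1, C1qc and Rpl22), and 0 changed sign. Of the named genes not called, 3 gained a call under at least 1 alternative: Atf4 and Ndufs1 as lower and Vim as higher. Genes not called changed sign as follows. Centred on array medians, Atf4 had a log2 change of 0.033 and Cdkn1a of 0.027. Vim had -0.020 under quantile normalization and -0.027 centred on olfactory receptor probe sets. With 1 array left out, Cdkn1a ran from -0.185 to 0.01 and Ptprc from -0.375 to 0.045.

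Same-numbered shPC28 and scram arrays deviated from their group means in opposite directions (r from -0.182 to -0.168 across probe sets). The same held for shPC28 and shPC25 (-0.174 to -0.139) and for shPC25 and scram (-0.184 to -0.147). Arrays of different number in different groups all correlated positively (0.0474 to 0.133). Deviations from a group mean cancel out within the group, so these positive values follow from the negative ones and are no separate observation. The negative values followed the replicate number, and whether the numbers pair the samples cannot be told from these correlations. The cause of the pattern was not tested. With replicate number as a block 7304 probe sets were changed, 3441 higher and 3863 lower. Array values have no count behind them, and probe sets near the bottom of the scale cannot show a fall.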

Other observations

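Counts for further gene groups with shPC28 are by the same limma test, by which 21.2% of all genes were higher and 21.6% lower than with scram. Histone genes of the replication-dependent clusters gave 20 higher and 6 lower of 50 measured, though their sequences are alike and probe sets may read several. They gave 8 higher and 8 lower with the arrays centred on olfactory receptor probe sets, and 35 higher and 6 lower with the arrays centred on their medians. Assembly factors of cytochrome oxidase gave 11 higher and 3 lower of 20, and those of complex I 7 higher and 2 lower of 15. Ndufaf3 rose 2.46-fold and Ndufaf1 fell 2.66-fold. Mitochondrial carriers of the SLC25 family gave 11 higher and 16 lower of 35, and 13 of each with the arrays centred on their medians. Plasma membrane amino acid transporters gave 3 higher and 8 lower of 17, and fatty acid genes 9 higher and 8 lower of 29, or 9 higher and 10 lower with the arrays centred on olfactory receptor probe sets. Of the tRNA synthetases Farsb was 2.3-fold higher.

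Among NF-kB genes 6 rose and 8 fell of 20, and 9 rose and 6 fell with quantile normalization. Map3k14, the kinase NIK of the non-canonical pathway, rose 4.04-fold. The MYC network gave 3 higher and 8 lower of 16, and extracellular matrix genes 4 higher and 9 lower of 29. Of 14 common reference genes 3 rose and 3 fell, with a median log2 change of 0.14. With the arrays centred on olfactory receptor probe sets 3 fell and the median was -0.06, and with the arrays centred on their medians 7 rose and 1 fell.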
